A study of Mus musculus with 7 samples.

Results

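De novo lipogenesis is the making of fatty acids from surplus carbohydrate, and it was followed here through 10 genes for its enzymes and regulators in livers with and without miR-122. The genes were Acly, Acaca, Acacb, Fasn, Scd1, Scd2, Me1, Thrsp, Mlxipl and Srebf1, and every array probe set whose annotated symbol was exactly one of them was read on its own, which gave 23 probe sets of the 45037 tested. The samples were livers of 4 mice labelled mir-122 knockout (numbered KO-03, KO-90, KO-91, KO-94) and 3 mice labelled WT (numbered WT-27, WT-103, WT-104), all 2 months old and of B6/129 background, with 1 Affymetrix array per animal. The labels do not say how the knockout was made, whether animals were littermates, when they were killed or whether they had been fed. miR-122 is the dominant microRNA of hepatocytes, and the comparison asks how transcript levels differ when it is missing. Values are log2 expression after robust multi-array averaging (RMA), so a difference of 1 is a doubling. Values of single animals follow this order of animals.

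In this pathway citrate leaves the mitochondrion and is split into acetyl-CoA, which is carboxylated to malonyl-CoA and then condensed to palmitate, and a desaturase places the first double bond. NADPH, partly from malic enzyme, supplies the reducing power. In liver the genes are switched on after feeding, chiefly by SREBP-1c under insulin and by ChREBP when glucose is plentiful.

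Transcripts of the pathway were mostly at lower values in knockout than in wild-type liver, but few differences passed the test. Of the 23 probe sets, 2 fell in knockout, 1 of Acacb and 1 of Acly, 0 rose and 21 did not pass, by limma at an adjusted p under 0.05 over all probe sets. Over the whole array 0.32% of probe sets were called lower and 1.29% higher by the same rule. At an unadjusted p under 0.05, 16 member probe sets were lower and 1 was higher, against 5.51% and 7.8% of all probe sets. The difference was negative for 19 of the 23, against 51.0% of all probe sets, and its median was -0.90, against -0.0047 over all probe sets. In 10 probe sets every knockout array lay below every wild-type array, as in 5.53% of all probe sets, and in 1 (of Scd2) every knockout array lay above, as in 7.25%. Probe sets of 1 gene read the same RNA and are not independent of each other. The count of falls was 4 without KO-94, where both Scd1 probe sets passed, and 1 without KO-91, WT-27, WT-103 or WT-104. The count of rises was 1 without KO-03, a probe set of Scd2. Counts over all probe sets also moved between the fits without 1 array, and their ranges are given in the closing section.

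Levels were set against a floor, the highest of 27 bacterial control probe sets on each array (4.71 to 5.23). Of the 23 probe sets, 5 never exceeded it on any array: 1445754_at of Acacb, 1438389_x_at, 1439445_x_at and 1446315_at of Acly, and 1415824_at of Scd2. These say little about the transcript, and the other 18 carry the account below. Among those 18, 16 differences were negative and 2, both of Scd2, were positive. Probe sets ending in _x_at can hold probes that match other transcripts too, and those ending in _a_at match several transcripts of 1 gene.

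**Figure D1:**
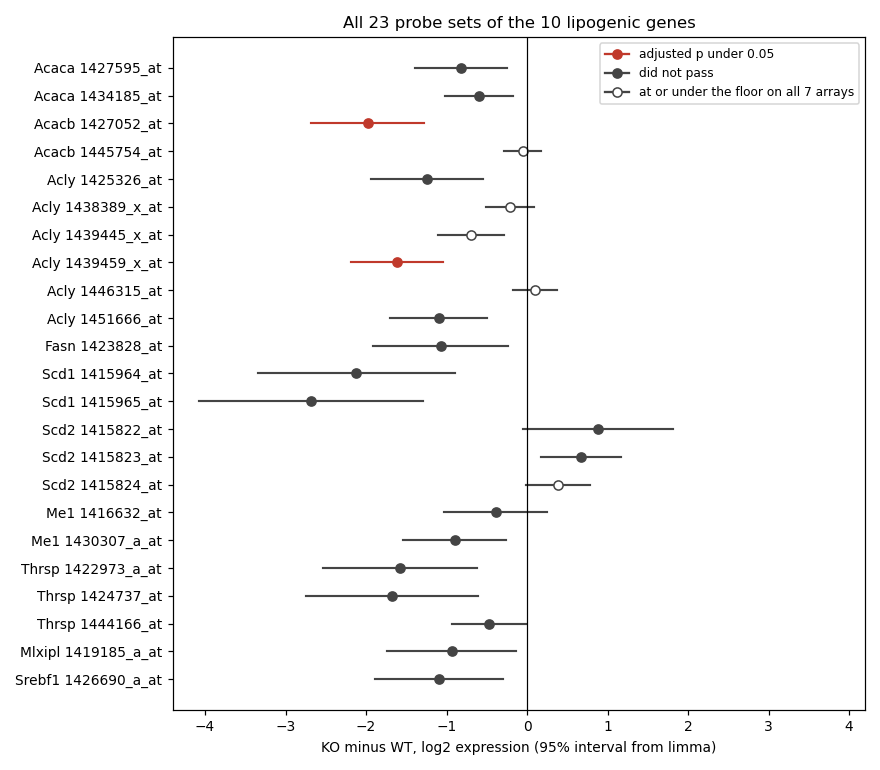
Difference in log2 expression, knockout minus wild type, for each of the 23 probe sets (points) with limma's 95% interval (lines, n = 4 and 3). Red marks an adjusted p under 0.05, which 1427052_at of Acacb at -1.98 and 1439459_x_at of Acly at -1.61 reached, and open points mark probe sets that never exceeded the floor.

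Acly, ATP citrate lyase, makes the cytosolic acetyl-CoA that the pathway starts from, and its 3 brightest probe sets all separated the genotypes. Probe set 1439459_x_at read 9.09, 9.33, 8.88 and 8.83 in knockout livers, against 10.41, 11.30 and 10.22 in wild-type livers. The groups did not overlap and lay 0.89 apart at their nearest. The means were 9.03 ± 0.23 (SD, n = 4) in knockout and 10.64 ± 0.58 (SD, n = 3) in wild type, a fall of 3.05-fold (log2 difference -1.61 ± 0.25 (SE), limma adjusted p = 0.0198). The call was lost without KO-91 or WT-27 (limma adjusted p = 0.0738 and 0.0534) and at a threshold of 0.01. Probe set 1451666_at, with the highest mean of the gene, read 9.36, 10.08, 9.27 and 9.41 in knockout livers, against 10.31, 11.21 and 10.37 in wild-type livers. Here KO-90 came within 0.23 of the lowest wild-type array, and the difference of -1.10 ± 0.26 (SE) did not pass (limma adjusted p = 0.0915). The probe set 1425326_at read 7.83, 8.66, 7.71 and 7.79 in knockout livers, against 8.96, 9.91 and 8.85 in wild-type livers, a difference of -1.24 ± 0.31 (SE) that did not pass either (limma adjusted p = 0.100), again with KO-90 highest among the knockouts. Both passed with array weights, a fit that counts deviating arrays less (limma adjusted p = 0.0313 and 0.0317). That fit called more probe sets in general, 407 lower over the whole array, against 144 without weights. Of the 3 dim probe sets, 1439445_x_at read 2.98 to 3.12 in knockout and 3.47 to 4.24 in wild type, also without overlap, and in the other 2 the groups overlapped.

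RefSeq promoter windows (build GRCm38.p6), from 250 bases before to 50 after an annotated start, were read for the members because the genes mostly shared a direction. Windows were found for 8 of the 10 genes, 12 windows in all, and not for Scd1 and Scd2. They were searched on both strands for motifs with exact letters. CCAAT stood for the CCAAT box that NF-Y binds. GGGCGG stood for the GC box of Sp1. CACGTG stood for the E-box. TCACNCCAC stood for the sterol regulatory element that SREBP binds, with N as any base. TATAAA stood for the TATA box. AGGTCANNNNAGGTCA stood for the direct repeat of LXR receptors. No 2 different motifs overlapped in the windows printed. The CCAAT box was found in 8 of 12 windows and in 7 genes, all but Acaca, against 37.4% of 32851 windows of all genes. Acaca was read in 1 window only, at 1 annotated start, which held none of the motifs. That absence holds for this window and not for any other start of the gene. The GC box was found in 5 of 12 windows (Acly, Me1, Mlxipl and Srebf1), against 35.7% of all windows. The E-box and the sterol element were each found in 1 window of Mlxipl, against 7.15% and 1.24% of all windows. The TATA box was found in 1 window, of Acacb, against 13.6%. The LXR repeat was found in 0 of the 12 windows, against 0.0152% of all windows, and its absence says only that these letters are not in these windows. A match is a run of letters and not evidence of a bound factor. The Acly window (chr11:100527951-100528250, minus strand) is printed because Acly holds 1 of the 2 calls. Capitals mark GC boxes that begin 117, 88, 76 and 27 bases before the start and a CCAAT box that begins at base 38 after it.
Acly promoter: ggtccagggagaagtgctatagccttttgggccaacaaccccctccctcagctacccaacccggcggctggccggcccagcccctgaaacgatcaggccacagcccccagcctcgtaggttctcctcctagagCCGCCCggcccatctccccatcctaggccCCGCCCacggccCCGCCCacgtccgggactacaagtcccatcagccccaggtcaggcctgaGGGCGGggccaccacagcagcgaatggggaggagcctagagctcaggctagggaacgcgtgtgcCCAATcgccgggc

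Acetyl-CoA carboxylase turns acetyl-CoA into malonyl-CoA and exists in 2 forms, and Acacb gave the larger of the 2 called differences. Acacb encodes the form at the mitochondrial surface, whose malonyl-CoA restrains the entry of fatty acids into oxidation. Its probe set 1427052_at read 5.99, 6.62, 5.52 and 6.71 in knockout livers, against 7.82, 8.64 and 8.12 in wild-type livers. All knockout arrays lay below all wild-type arrays, with 1.10 between the nearest. The means were 6.21 ± 0.56 (SD, n = 4) in knockout and 8.19 ± 0.41 (SD, n = 3) in wild type, a fall of 3.95-fold (log2 difference -1.98 ± 0.31 (SE), limma adjusted p = 0.0189). It lost the call without WT-103 or WT-104 (limma adjusted p = 0.101 and 0.0626). The second Acacb probe set, 1445754_at, lay between 3.70 and 3.88 on all arrays, under the floor. The Acacb window (chr5:114165268-114165567, plus strand), printed for the same reason, lies at 1 of the starts of the gene. Its capitals mark a CCAAT box that begins 87 bases and a TATA box that begins 34 bases before that start.
Acacb promoter: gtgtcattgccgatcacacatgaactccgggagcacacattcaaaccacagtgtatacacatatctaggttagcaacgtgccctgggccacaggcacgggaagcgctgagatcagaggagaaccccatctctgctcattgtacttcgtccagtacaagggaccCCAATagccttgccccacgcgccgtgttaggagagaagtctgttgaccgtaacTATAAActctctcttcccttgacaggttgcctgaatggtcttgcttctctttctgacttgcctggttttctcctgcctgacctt

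Acaca encodes the cytosolic carboxylase that feeds fatty acid synthesis. Probe set 1434185_at read 7.53, 8.27, 7.56 and 7.73 in knockout livers, against 8.38, 8.50 and 8.22 in wild-type livers. KO-90 lay inside the wild-type range and the other 3 knockouts below it. The difference of -0.60 ± 0.19 (SE) did not pass (limma adjusted p = 0.194), and without KO-90 it was -0.76 (limma adjusted p = 0.0509). Probe set 1427595_at averaged 5.34 ± 0.38 (SD, n = 4) in knockout and 6.16 ± 0.44 (SD, n = 3) in wild type, and KO-90, at 5.91, again lay above WT-104, at 5.65. Its difference of -0.82 ± 0.25 (SE) did not pass (limma adjusted p = 0.187).

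The carboxylases are set side by side as a description, since the pair was chosen after its values were seen. The genotype difference of Acacb, -1.98, lay -1.39 from that of Acaca 1434185_at, -0.60, and -1.16 from that of Acaca 1427595_at, -0.82. Whether the 2 genes changed by unequal amounts was not tested.

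Fasn, fatty acid synthase, builds palmitate from malonyl-CoA and is read by 1 probe set, 1423828_at. It read 8.72, 9.67, 8.55 and 8.63 in knockout livers, against 9.67, 10.82 and 9.41 in wild-type livers. KO-90 stood above the other knockouts and level with WT-27, and WT-103 stood above the other wild types. The means were 8.89 ± 0.52 (SD, n = 4) in knockout and 9.97 ± 0.75 (SD, n = 3) in wild type, and the difference of -1.07 ± 0.37 (SE) did not pass (limma adjusted p = 0.245). It ranged from -1.35 to -0.65 when 1 array was left out. The Fasn window (chr11:120824498-120824797, minus strand) is printed as that of the central enzyme. Capitals mark CCAAT boxes that begin 90, 62 and 59 bases before the start, with the 2 nearest ones overlapping on opposite strands.
Fasn promoter: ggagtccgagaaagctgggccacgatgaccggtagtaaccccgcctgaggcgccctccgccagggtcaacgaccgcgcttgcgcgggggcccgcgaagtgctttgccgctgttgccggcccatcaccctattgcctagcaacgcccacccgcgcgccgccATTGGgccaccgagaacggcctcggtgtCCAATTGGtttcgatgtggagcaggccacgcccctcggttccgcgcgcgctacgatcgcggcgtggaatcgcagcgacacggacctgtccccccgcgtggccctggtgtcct

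Scd1, the stearoyl-CoA desaturase of adult liver, makes monounsaturated from saturated fatty acids and had the largest differences among the members, with the widest spread. Probe set 1415964_at read 9.36, 9.66, 10.76 and 11.64 in knockout livers, against 12.96, 12.78 and 11.68 in wild-type livers. No knockout array reached a wild-type one, but KO-94 and WT-104 were only 0.04 apart. The difference of -2.12 ± 0.54 (SE) did not pass (limma adjusted p = 0.110). Probe set 1415965_at, which is dimmer, read 6.14, 6.11, 7.26 and 8.44 in knockout livers, against 10.46, 9.97 and 8.59 in wild-type livers. KO-94 was again the highest knockout and WT-104 the lowest wild type. The difference of -2.68 ± 0.61 (SE), 6.43-fold, did not pass (limma adjusted p = 0.0787). Without KO-94 both passed, at -2.55 and -3.17 (limma adjusted p = 0.0395 and 0.031), and both passed with array weights.

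Scd2 encodes a second stearoyl-CoA desaturase, known from brain and from the liver around birth, and it was the member whose values ran the other way. Probe set 1415822_at read 5.87, 6.98, 6.92 and 7.20 in knockout livers, against 4.94, 6.50 and 6.15 in wild-type livers. KO-03 lay among the wild types and the other 3 knockouts above them, and the difference of 0.88 ± 0.41 (SE) did not pass (limma adjusted p = 0.403). It was 0.42 without WT-27, the lowest array (limma adjusted p = 0.763). Probe set 1415823_at read 4.79, 5.41, 5.26 and 5.84 in knockout livers, against 4.55, 4.77 and 4.65 in wild-type livers. The groups touched without overlap, 0.03 apart, and KO-03 and all wild-type arrays lay under the floor. With the wild-type arrays set at the floor and KO-03 kept at its value, the difference was 0.42. That is not a lower bound, since KO-03 was itself under the floor. The difference as read did not pass (limma adjusted p = 0.215). Without KO-03 it passed (limma adjusted p = 0.0369), with all wild-type arrays still under the floor, so its size there is not given.

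The desaturases are likewise set side by side as a description, since their opposite signs prompted it. The genotype difference of Scd2 1415822_at, 0.88, and that of Scd1 1415964_at, -2.12, lay 3.0 apart, and neither passed. Scd1 and Scd2 are closely related in sequence, and whether each probe set reads its own transcript alone was not tested.

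**Figure D2:**
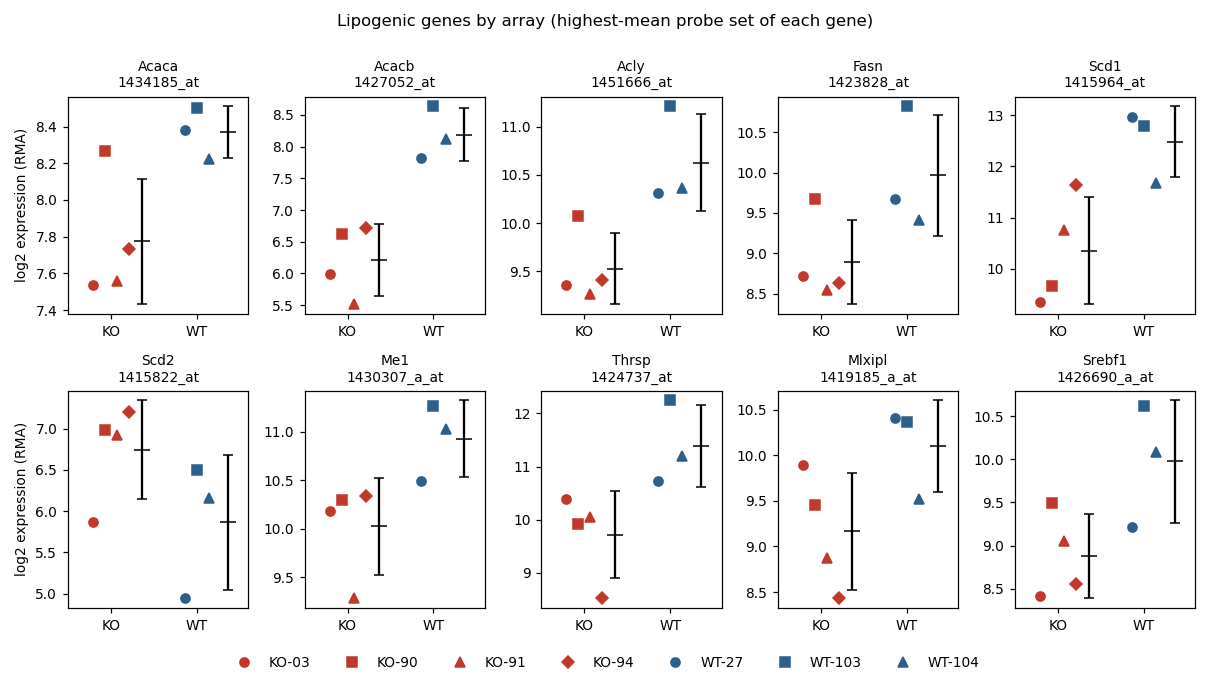
Log2 expression of the highest-mean probe set of each of the 10 genes, with 1 point per animal (knockout left, in red, and wild type right, in blue) and the mean with its SD beside each group. Scales differ between panels. Knockout and wild-type points do not overlap for Acacb, Acly, Scd1, Me1 and Thrsp, and Scd2 alone has its knockout mean above the wild-type mean.

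Me1, cytosolic malic enzyme, yields NADPH for fatty acid synthesis, and its 2 probe sets gave unlike pictures. Probe set 1430307_a_at read 10.18, 10.30, 9.28 and 10.34 in knockout livers, against 10.49, 11.26 and 11.02 in wild-type livers. The groups lay 0.15 apart, and the difference of -0.90 ± 0.28 (SE) did not pass (limma adjusted p = 0.195). Probe set 1416632_at averaged 9.81 ± 0.51 (SD, n = 4) in knockout and 10.20 ± 0.38 (SD, n = 3) in wild type, with overlap and a difference of -0.39 ± 0.28 (SE). KO-91 was the lowest knockout in both, at 9.28 and 9.09, and without it the difference of 1416632_at was -0.15 (limma adjusted p = 0.834). Without WT-103 it was -0.20 (limma adjusted p = 0.914).

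Thrsp, also called Spot 14, is a small nuclear and cytosolic protein that promotes lipogenesis and responds to thyroid hormone and to feeding. Probe set 1424737_at read 10.39, 9.92, 10.04 and 8.52 in knockout livers, against 10.73, 12.25 and 11.21 in wild-type livers. Probe set 1422973_a_at read 9.14, 8.74, 8.95 and 7.66 in knockout livers, against 9.63, 11.10 and 9.88 in wild-type livers. In both, all knockouts lay below all wild types, with KO-94 lowest and WT-103 highest. The differences of -1.68 ± 0.47 (SE) and -1.58 ± 0.42 (SE) did not pass (limma adjusted p = 0.149 and 0.127). A dimmer probe set, 1444166_at, overlapped between genotypes and differed by -0.48 ± 0.20 (SE). The Thrsp window (chr7:97417501-97417800, minus strand) is printed because its probe sets separated the genotypes without a call. Capitals mark CCAAT boxes that begin 79 and 52 bases before the start.
Thrsp promoter: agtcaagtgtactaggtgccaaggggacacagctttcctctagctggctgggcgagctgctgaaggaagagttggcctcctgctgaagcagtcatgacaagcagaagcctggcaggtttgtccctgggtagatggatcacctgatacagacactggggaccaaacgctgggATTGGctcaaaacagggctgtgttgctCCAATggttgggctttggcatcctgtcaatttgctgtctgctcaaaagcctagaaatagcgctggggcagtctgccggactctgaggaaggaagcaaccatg

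Both transcription factors of the pathway overlapped between genotypes. Mlxipl encodes ChREBP, the factor that answers to glucose, and 1419185_a_at read 9.89, 9.46, 8.88 and 8.43 in knockout livers, against 10.41, 10.36 and 9.52 in wild-type livers. KO-03 lay above WT-104, and the difference of -0.94 ± 0.35 (SE) did not pass (limma adjusted p = 0.290). Srebf1 encodes SREBP-1a and SREBP-1c, and 1426690_a_at read 8.42, 9.49, 9.05 and 8.56 in knockout livers, against 9.22, 10.62 and 10.09 in wild-type livers. KO-90 lay above WT-27, and the difference of -1.10 ± 0.35 (SE) did not pass (limma adjusted p = 0.207). SREBP and ChREBP are also regulated as proteins, by cleavage and by entry into the nucleus, which transcript levels do not show.

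Animals ranked differently for different genes. With the highest-mean probe set of each gene, KO-90 was the highest knockout for Acaca, Acly, Fasn and Srebf1, KO-94 for Acacb, Scd1, Scd2 and Me1, and KO-03 for Thrsp and Mlxipl. KO-94 was at the same time the lowest knockout for Thrsp, at -2.87 from the wild-type mean, and for Mlxipl, at -1.67. KO-03 was lowest for Scd1, at -3.12 from the wild-type mean, where KO-94 was at -0.84. Among the wild types, WT-103 was highest for 8 of the 10 genes and WT-27 lowest for 6. The mean of the 10 genes was 8.57, 9.04, 8.58 and 8.72 in knockout livers, against 9.49, 10.29 and 9.58 in wild-type livers. The knockouts were thus each below the wild types in the mean while no single animal was lowest throughout.

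**Figure D3:**
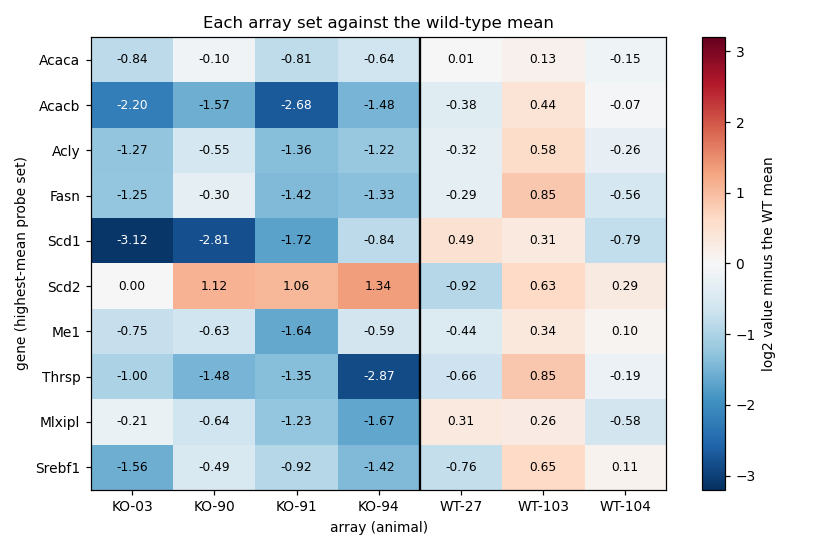
Log2 value of each array minus the wild-type mean for the highest-mean probe set of the 10 genes, with blue for below and red for above that mean. In knockout columns all genes but Scd2 are negative, from -0.10 (Acaca in KO-90) to -3.12 (Scd1 in KO-03), and among wild types WT-103 is positive for every gene shown.

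The steps around the pathway were read from lists with 1 probe set per gene, the one with the highest mean. Of 48 measured genes in 6 lists, 1 rose, 1 fell and 46 did not pass, against 1.87% higher and 0.511% lower over all 18193 genes. The list of citrate, acetyl-CoA and NADPH supply had 1 rise among 8 genes, that of Cs, the mitochondrial enzyme that makes citrate. Cs read 10.91, 11.02, 10.96 and 11.07 in knockout livers, against 9.76, 10.16 and 10.11 in wild-type livers, without overlap (difference 0.98 ± 0.12 (SE), limma adjusted p = 0.00828). The other 7 genes of that list had negative differences that did not pass, and the list median was -0.29, against 0.01 over all genes. Among 9 genes of insulin and glucose input, Khk, the kinase that starts fructose metabolism, fell to 10.38 ± 0.26 (SD, n = 4) in knockout, against 11.26 ± 0.17 (SD, n = 3) in wild type (difference -0.88 ± 0.16 (SE), limma adjusted p = 0.0363). The call of Khk was lost without KO-90, KO-91 or any wild-type array, at limma adjusted p up to 0.171. The median of its list was -0.19.

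In the other 4 lists 0 genes passed. Among the 6 genes of SREBP processing the median difference was -0.07, with the escort protein Scap at -0.32 (limma adjusted p = 0.399). Among 8 partners and other regulators it was -0.08, with the coactivator Ppargc1b at -1.11 (limma adjusted p = 0.106). Among 7 genes for the subunits of AMPK, the kinase that inhibits both carboxylases, and for its upstream kinase Stk11, it was 0.0049, with the catalytic subunit Prkaa2 at -0.53 (limma adjusted p = 0.268). Among 10 genes of elongation, desaturation and esterification it was -0.07, with the desaturase Fads2 at 0.61 (limma adjusted p = 0.0816). At an unadjusted p under 0.05 the 4 lists held 0, 2, 1 and 3 genes lower and 0, 0, 0 and 1 higher, in the same order. Of genes named after their values were seen, the acetyl-CoA synthetase Acss2 was at -1.40 (limma adjusted p = 0.0650), the Thrsp paralog Mid1ip1 at -1.10 (0.206) and the liver pyruvate kinase Pklr, a ChREBP target, at -0.89 (0.101), and none passed.

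**Figure D4:**
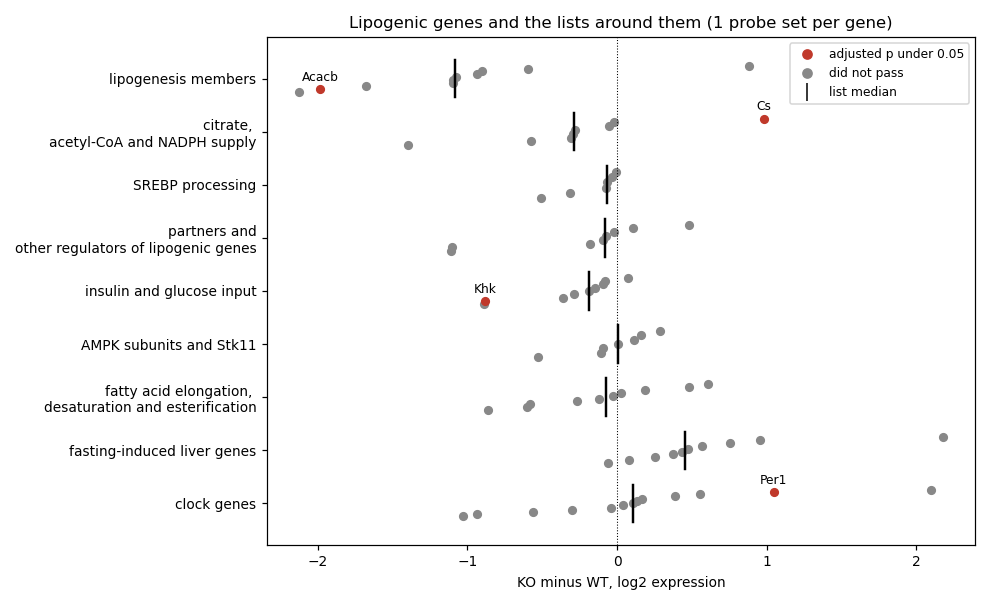
Difference in log2 expression, knockout minus wild type, of each gene (point, 1 probe set per gene) in the lipogenic genes and in 8 other lists, with a bar at each list's median and the called genes in red and named. The lipogenic median is -1.08, the other medians lie between -0.29 and 0.45, and the calls are Acacb, Cs, Khk and Per1.

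Lipogenic transcripts depend on feeding and on the time of day, which the labels do not give, so genes that mark both were read beside them. Of 10 measured fasting-induced genes 0 passed, 9 differences were positive, and the median was 0.45. Their mean was 10.15, 9.51, 9.38 and 9.24 in knockout livers, against 9.74, 8.32 and 8.85 in wild-type livers. WT-27 lay above 3 of the 4 knockouts in this mean, WT-103, the wild type with the highest lipogenic mean, was lowest, and the largest difference was that of Cyp4a14, at 2.18 ± 0.90 (SE) (limma adjusted p = 0.338). Without WT-27 it was 3.46 and passed (limma adjusted p = 0.0233), and it was 1.41 without WT-104. Of 13 clock genes Per1 rose, 0 fell and 12 did not pass. Per1 averaged 6.88 ± 0.13 (SD, n = 4) in knockout, against 5.83 ± 0.14 (SD, n = 3) in wild type (difference 1.05 ± 0.12 (SE), limma adjusted p = 0.00492). At an unadjusted p under 0.05 (limma), 2 of the 13 were lower and 3, Per1 among them, higher. With array weights 2 clock genes rose and 2 fell, and 1 fell in the fits with 1 probe set per gene or a group mean of at least 6. The part of feeding or time of day in the lipogenic differences was not tested.

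The labelled tissue was checked with markers. Of 9 measured hepatocyte markers 0 passed and their list mean was 13.41 to 13.54 in knockout and 13.26 to 13.40 in wild type. Of 6 measured markers of adipocytes, the other main lipogenic cell, 0 passed, Adipoq, Lep and Cidec never exceeded the floor, and the list mean was 4.74 to 5.13 in knockout and 4.84 to 4.86 in wild type. Markers of other liver cells did move: 4 of 6 cholangiocyte, 4 of 8 stellate cell, 1 of 8 macrophage and 0 of 7 endothelial markers rose, and 0 fell. Over all genes 1.87% were called higher and 0.511% lower. Without WT-103 only Cd24a of the cholangiocyte and Pdgfra of the stellate markers passed (limma adjusted p = 0.0255 and 0.0244). The cholangiocyte count was 2 without KO-90, KO-91 or WT-27, and the stellate count 2 without KO-91 or WT-27. The macrophage call, of Cd14, was lost without KO-90, KO-91 or any 1 wild-type array. Without WT-27, 1 endothelial marker fell, Lyve1, at -0.66 with all arrays (limma adjusted p = 0.295). Without WT-104, 1 hepatocyte marker rose, Tat, at 0.90 with all arrays (limma adjusted p = 0.0855). Every knockout array lay above every wild-type array for Tat. Several of these markers were dim in wild type. Tspan8 was at or under the floor on all 3 wild-type arrays, Krt19 and Epcam on 2, and Cd24a and the stellate marker Col1a1 on 1. The cholangiocyte marker Krt7 never exceeded the floor on any array. The cholangiocyte mean was 5.56 to 6.66 in knockout and 4.47 to 4.71 in wild type, where each lay under its array's floor. The stellate mean was 7.81 to 8.34 in knockout and 7.07 to 7.28 in wild type. The part of these cells in the lipogenic values was not tested. In whole liver, fewer cells of a type and less RNA per cell cannot be told apart.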

How the data were processed

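RNA of frozen livers was hybridised, biotin-labelled, to Affymetrix arrays, per the labels' protocols. The authors deposited log2 values that came from RMA, run in Partek's suite, per the submitters' processing notes. Software versions are not given in sources used here. RMA forces array distributions to be alike, and values lay between 2.20 and 14.89. No counts lie behind them, so the number of arrays limits precision. The labels name no batch. The p-values set each difference against the spread between these animals, which limma draws towards a prior taken over all probe sets.

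Of 45101 probe sets, 64 controls were left out. Platform annotation gave 34958 probe sets 1 symbol. Knockout minus wild type was fitted with limma 3.58.1 in R 4.3.3 (lmFit, eBayes, two-sided, no covariates, 5 residual and 3.80 prior degrees of freedom) on all 45037, with Benjamini-Hochberg adjustment and a threshold of 0.05. The fit was tested on simulated data. For other lists, 1 probe set per gene (highest mean) was read from this fit. Some genes of these lists were not analysed here, and counts are of those measured. The floor is, per array, the brightest of 27 control probe sets for Bacillus subtilis genes, which may or may not have been spiked in. For Scd2 1415823_at a difference is also given with the wild-type arrays set at that floor.

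Every member probe set is accounted for. Of the pathway, feeding and clock lists the called genes are named, with 3 more as stated. Where such a list had no call, its gene with the smallest p is named. In the marker lists without a call Tat, Lipe and Lyve1 had the smallest p. Other markers are named for a call, the floor or a deviating array. Members and lists were chosen with earlier results of these data known. Alternatives covered priors, array weights, normalization, filters, probe set choice, thresholds and fits without 1 array. A fit without both KO-03 and WT-104 was added after the data were seen.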

Additional observations from a re-analysis of the deposited data

Results flagged for a closer look

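In 7 of 43 probe sets examined, 1 of the 4 knockout arrays stood apart from the other 3 by Dixon's criterion, which chance meets in about 1 in 20 groups. KO-90 was the high one for Acaca 1427595_at (5.91), Acly 1425326_at (8.66) and Fasn 1423828_at (9.67). KO-91 was the low one for Me1 1430307_a_at (9.28) and for Fads2 1449325_at (10.41). KO-03 was the low one for Acly 1439445_x_at (2.98), which lies under the floor, and for the cholangiocyte marker Tspan8 1424649_a_at (5.30). The cause was not tested.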

How the results depend on the processing

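No paired analysis was possible because animal numbers do not recur between genotypes. All member probe sets kept their sign in every alternative run on them. The 2 member calls became 1 with 1 probe set per gene, 1 with the mean of a gene's probe sets, 1 without _x_at and _s_at probe sets (both through leaving out 1439459_x_at or averaging it), 0 at a threshold of 0.01, 7 with array weights and 4 without KO-03 and WT-104. Leaving out 1 array gave 1 to 4 falls and 0 to 1 rises. Over all probe sets, 582 were higher and 144 lower. These became 163 and 21 at 0.01, 363 and 68 with a fold of at least 2, 1177 and 407 with array weights, 1231 and 709 without KO-03 and WT-104, and the lower count 242 with a group mean of at least 6. Leaving out 1 array gave 172 to 1112 higher and 38 to 268 lower. The 1 rise in the 6 pathway lists became 0 with the fold criterion and 2 with the mean of probe sets, and 1 to 2 without 1 array. The 1 fall became 2 with 1 probe set per gene, 0 at 0.01 or with the fold criterion, 5 with array weights, 2 with a group mean of at least 6, 3 without KO-03 and WT-104, and 0 to 3 without 1 array. The causes were not tested. Dim probe sets have no detection call here. Signal near the floor limits at least the 5 of the 23 that never exceeded it. It also limits Scd2 1415823_at, under the floor in KO-03 and all wild-type arrays.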
